A study of Cicer arietinum with 5 samples.

Results

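The regions described here were windows of 500 bp in the chickpea genome that carried DNA methylation in CG and CHG sequence contexts and had very few methylcytosines in CHH context, where H is A, C or T. They are called CHH-poor windows below. Each had 4 or more CG and 4 or more CHG methylcytosines listed in all 5 libraries, and at most 4 asymmetric methylcytosines in any library. Separate windows were laid from base 1 of chromosomes Ca1 to Ca8, and 541 of 694489 windows met these limits. They made up 0.370% of the 146107 windows with 4 or more CG and 4 or more CHG methylcytosines. The remaining 145566 of these, called other CG and CHG windows, were used for comparison, and 138802 of them had 5 or more asymmetric methylcytosines in every library. The members were thus chosen by the number of listed methylcytosines, which is a description of them and is not tested below.

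In plants, methylation in CG context is copied at each replication by the methyltransferase MET1, and methylation in CHG context is kept up by chromomethylases such as CMT3, which are guided by dimethylation of histone H3 at lysine 9. CHH methylation has no symmetric copy on the opposite strand and is placed anew by RNA-directed DNA methylation through DRM enzymes or by CMT2. Silent transposable elements usually carry all contexts, whereas gene body methylation is mostly in CG context only. These roles are best known from Arabidopsis.

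Whole genome bisulphite sequencing was performed on seeds of Himchana 1, a small-seeded cultivar grown in the field, at mid-maturation (S5, 3 replicates) and late-embryogenesis (S3, 2 replicates). Bisulphite changes unmethylated cytosines to uracil, so that the methylation level of a cytosine is the percentage of its reads that still show C. Each biological replicate pooled many whole seeds, and in such bulk samples a change within cells and a change in the proportion of cell types cannot be told apart. S3 is late in the growth of the embryo and S5 lies in the filling of the seed with reserves.

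The tables listed 26012659 to 27777737 methylcytosines in the S5 libraries and 24562750 and 25784137 in the S3 libraries, with a median coverage of 12 to 14 and of 14 reads. They hold called methylcytosines only, so that a cytosine missing from a list was either unmethylated, weakly methylated or thinly covered. Context was inferred from listed partners on the opposite strand, 1 base downstream for CG and 2 bases downstream for CHG. Cytosines with no such partner are called asymmetric. They are CHH cytosines together with any CG or CHG cytosine lacking a listed partner. Whether a CHH-poor window had few CHH cytosines, or had many that were unmethylated, weakly methylated or thinly covered, cannot be told apart here. The lists give no coverage for cytosines that are not listed. In the CHH-poor windows, the mean coverage of CG and CHG cytosines listed in all libraries was 17.1, 14.6 and 14.98 reads in S5 and 15.6 and 16.2 reads in S3. The stages overlapped in this coverage. In the other CG and CHG windows it was 18.3, 12.9 and 18.2 reads in S5 and 18.5 and 18.8 reads in S3. All S5 libraries were below both S3 libraries there.

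CHG methylation in the CHH-poor windows was lower at S5 than at S3 and far lower than in other CG and CHG windows, whereas CG methylation was near 94% in both sets. Over the 2929 CHG cytosines of the CHH-poor windows that were listed in all 5 libraries, the mean level was 54.8, 54.7 and 57.8% in the S5 libraries and 68.8 and 69.7% in the S3 libraries. The stages did not overlap. The mean was 55.8% ± 1.73 (SD, n = 3) at S5 and 69.3% ± 0.622 (SD, n = 2) at S3, a difference of -13.5 percentage points (two-sided exact permutation p = 0.1, the smallest that 3 libraries against 2 allow).

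In the other CG and CHG windows, 1725246 such cytosines had a CHG level of 86.4, 85.6 and 87.2% at S5 and 89.2 and 88.9% at S3, a difference of -2.67 points. The stages did not overlap here either. Within each library, the CHG level of the CHH-poor windows lay below that of the other windows by 31.6, 30.9 and 29.4 points at S5 and by 20.4 and 19.2 points at S3. It was lower in 5 of 5 libraries, by a mean of -26.3 points ± 5.99 (SD, n = 5, two-sided exact sign-flip permutation p = 0.063, the smallest that 5 libraries allow). The windows were chosen in these same 5 libraries by numbers of listed methylcytosines, and listing depends on level. The sign-flip test thus shows only that the libraries were alike in this. The stage difference of the CHH-poor windows exceeded that of the other windows by -10.8 points (two-sided exact permutation p = 0.1), and S5 and S3 libraries did not overlap in this quantity. When each library was averaged over its own list in place of the shared cytosines, this value was -6.77 points. Of 8 exact tests made in all, 7 had a Benjamini-Hochberg adjusted p = 0.114 and 1 had 0.2 (exact permutation and sign-flip tests). None of them could fall below 0.05 at this number of libraries.

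**Figure D1:**
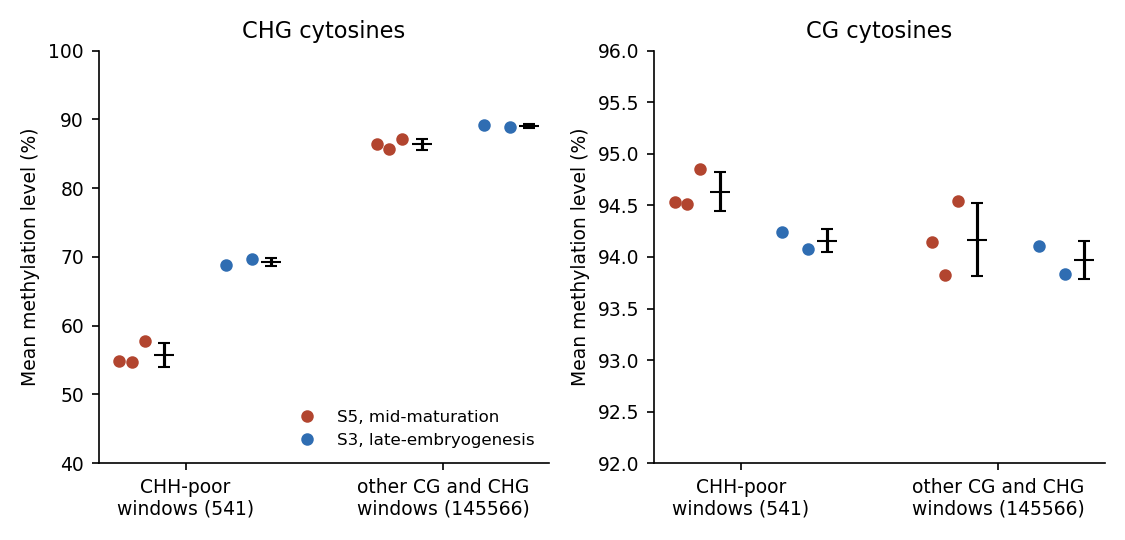
Mean methylation level (%) of CHG (left) and CG (right) cytosines listed in all 5 libraries, in CHH-poor windows and other CG and CHG windows, with a point per library and the mean ± SD beside the points. The S5 points of the CHH-poor windows lie between 54.7 and 57.8% in CHG and the S3 points at 68.8 and 69.7%, while the CG points lie between 94.1 and 94.8% on an axis that spans only a few points.

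CG methylation, which the same windows carried at 6079 shared cytosines, differed little. Its mean level was 94.5, 94.5 and 94.8% in the S5 libraries and 94.2 and 94.1% in the S3 libraries, without overlap. The difference was 0.476 points (two-sided exact permutation p = 0.1). In the other CG and CHG windows the CG level was 94.2% ± 0.357 (SD, n = 3) at S5 and 94.0% ± 0.187 (SD, n = 2) at S3, and the libraries of the stages overlapped. The CG stage difference of the CHH-poor windows was not shown to differ from that of the other windows, with a value of 0.278 points (two-sided exact permutation p = 0.2). Windows with CG methylation only, of which there were 57625 with no CHG methylcytosine in any library and at most 4 asymmetric ones, had a CG stage difference of 0.675 points.

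Single windows were then tested by logistic regression of methylated and unmethylated reads on stage, with Benjamini-Hochberg adjustment over all 177639 windows with 4 or more shared CHG cytosines or 265970 windows with 4 or more shared CG cytosines. A call needed an adjusted p (q) no greater than 0.01 together with a difference of at least 25 points. CHG methylation fell at S5 in 72 of the 541 CHH-poor windows (13.3%), against 0.411% of all windows tested, and rose in 1 (0.185%, against 0.00338%). Among the other CG and CHG windows, 460 (0.316%) were called lower. At q of 0.01 or less and any size of difference, 222 CHH-poor windows (41.0%) were lower, against 7.56% of all windows, and 2 (0.370%) were higher, against 0.0687%. Every S5 library lay below every S3 library in 362 (66.9%), against 34.5% of all windows, and above in 6 (1.11%), against 2.8%. This test treats reads as independent. Reads were summed over the cytosines of a window, so that a read crossing several of them was counted at each, and q may be too small. A quasi-binomial test, which scales with the spread between replicates, called 63 lower (11.6%, against 0.374% of all windows) and 1 higher (against 5 of all 177639 windows).

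The CG counts were near those of windows in general. No CHH-poor window was called lower in CG context by the logistic regression, against 0.0654% of all windows, and 1 was called higher, against 0.0252%. The quasi-binomial test called 0 in either direction, against 149 lower and 60 higher of all 265970 windows. At q of 0.01 or less and any size, 2 CHH-poor windows (0.370%, against 0.568% of all windows) were lower in CG by the logistic regression and 4 (0.739%, against 0.521%) were higher. At an unadjusted p under 0.05, the logistic regression gave 29 windows lower and 64 higher, and the quasi-binomial test 22 lower and 39 higher. The share of all windows at this limit was not counted, so this split cannot be called a trait of the CHH-poor windows. Every S5 library lay above every S3 library in CG level in 88 windows (16.3%, against 14.2% of all windows) and below in 44 (8.13%, against 9.38%).

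**Figure D2:**
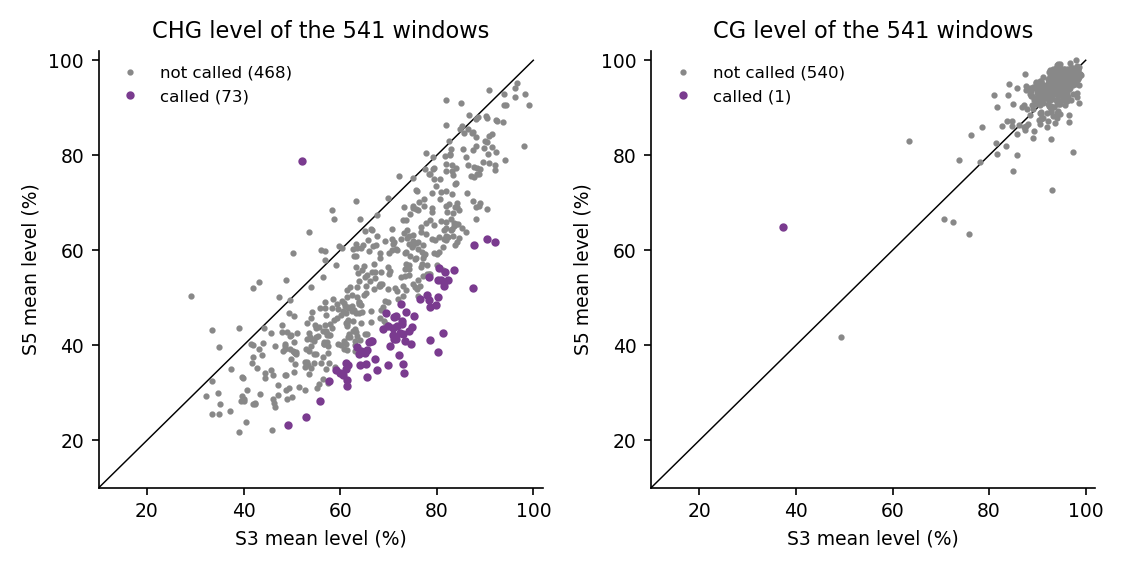
Mean CHG level (left) and CG level (right) of each of the 541 CHH-poor windows, with the mean of the S5 libraries on the vertical axis and that of the S3 libraries on the horizontal axis (%), called windows in purple and the line of equal level in black. In CHG, 508 windows lie below the line and 33 above it, and the called windows number 73. In pooled reads, 80% of the other CG and CHG windows, not drawn, were also lower in CHG at S5. In CG the points crowd at the upper end and 1 is called.

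The CHH-poor windows varied widely in CHG level. The median window had 52.3% at S5 (5th to 95th percentile 30.6 to 84.2%) and 68.3% at S3 (42.4 to 90.2%). A level under 50% was found in 45.8% of the windows at S5 and in 12.8% at S3, compared with 1.00 and 0.302% of the other CG and CHG windows. The median difference was -14.1 points, and the differences ran from -41.6 to 26.7 points. The mean CHG level was lower at S5 in 508 windows and higher in 33, while the CG level was lower in 221 and higher in 320. In pooled reads, CHG was lower in 94.5% of the CHH-poor windows and in 80% of the other CG and CHG windows. CG was higher in 58% of the CHH-poor windows, near the 55.6% of the other CG and CHG windows and the 60.8% of the CG-only windows. In the other windows the median CHG difference was -2.48 points. The CG level was much more even, with a median of 95.5% at S5 and 94.95% at S3, and 98.3 and 98.2% of the CHH-poor windows at 80% or more.

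Because a cytosine near 100% has little room on 1 side, the windows were also compared at the same CHG level midway between the stages. Among windows with a midway level of 50 to 60%, the 128 CHH-poor windows had 45.8% at S5 and 64.2% at S3, a difference of -18.4 points, and the 1707 other windows a difference of -9.99 points. From 60 to 70% the differences were -14.9 points in 126 CHH-poor windows and -9.08 points in 4934 others. From 80 to 90% they were -5.75 and -3.24 points. The CHH-poor windows had the greater difference in each of the 7 bands from 30 to 100%, of which the highest held only 10 of them. The 1 further CHH-poor window lay below 30% and was left out. Over the bands from 40 to 80% together, the 440 CHH-poor windows exceeded the others by -8.06 points in stage difference, and their CHG level was lower by 13.4 points in place of 26.3. These bands were chosen after seeing the data.

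**Figure D3:**
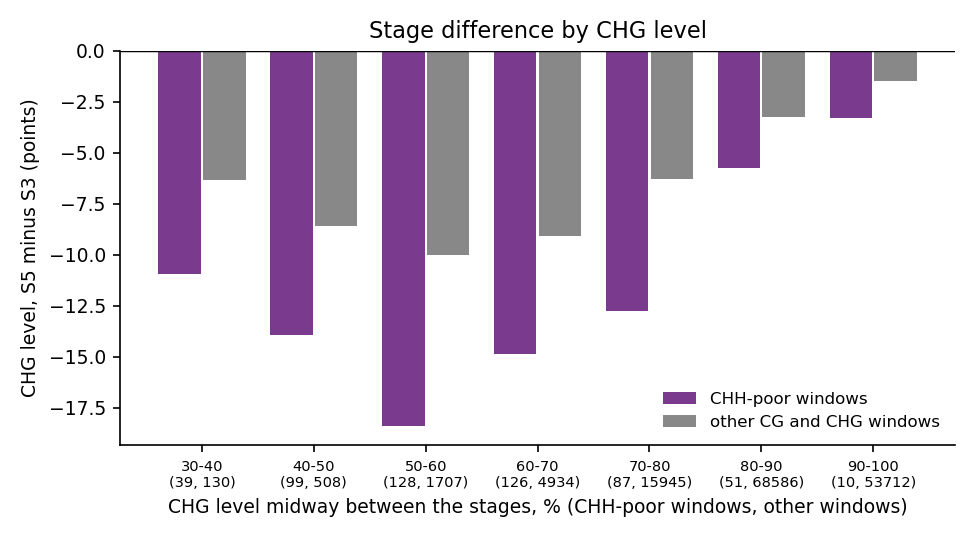
Difference in CHG level (S5 minus S3, percentage points) of CHH-poor windows and other CG and CHG windows within bands of the CHG level midway between the stages (%), with the numbers of windows in brackets. The bar of the CHH-poor windows is the longer one in every band drawn, at -18.4 against -9.99 points from 50 to 60%.

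The limit of 4 asymmetric methylcytosines did not mark a step in CHG level. The 191 windows just inside it, with a highest number of 4, had a CHG level of 60.4% at S5 and 72.5% at S3, and the 271 windows just outside it, with 5, had 64.3 and 75.4%. In the 121 windows with 2, the CHG level was 51.2% at S5 and 67.0% at S3, and in the 13 windows with none in any library it was 48.1 and 64.7%. At the other end, 12510 windows with 10 to 19 had 80.7% at S5 and 85.3% at S3. Within the CHH-poor windows the difference between the stages had no even order, at -16.6, -13.2, -15.9, -13.3 and -12.1 points with 0, 1, 2, 3 and 4. Outside them it was -11.1 points with 5, -8.00 points with 6 to 9 and -2.22 points with 40 or more. The CG level stayed between 92.6 and 95.1% throughout. At the limit on CHG number, the 258 windows with exactly 4 CHG had 53.9% at S5 and 67.5% at S3, beside 48.9 and 62.7% in 403 windows with 3. At the limit on CG number, 53 windows had exactly 4 and 44 windows that met the other limits had 3.

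**Figure D4:**
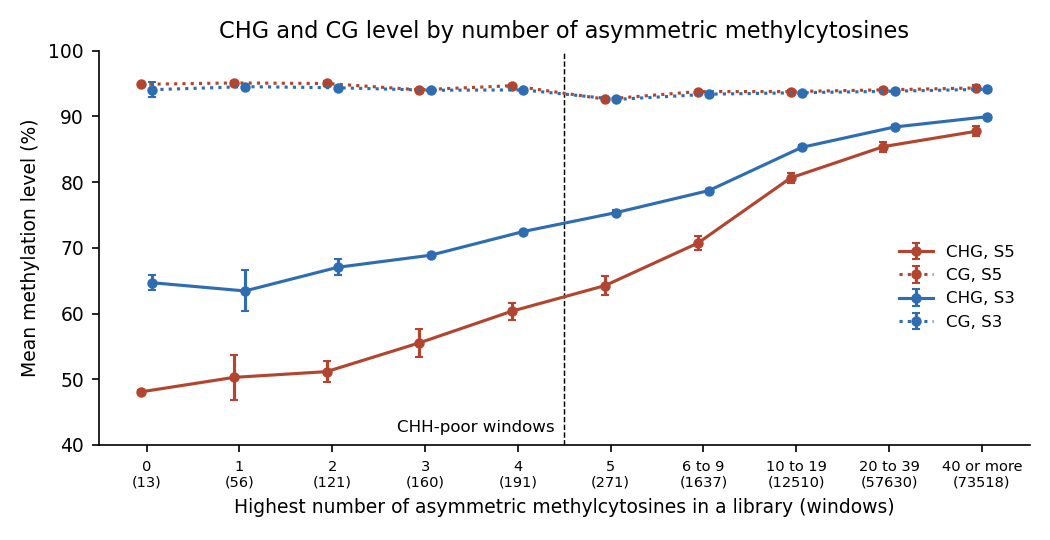
Mean CHG level (solid) and CG level (dotted) in % at S5 and S3 (mean ± SD over 3 and 2 libraries) of windows with 4 or more CG and 4 or more CHG, by the highest number of asymmetric methylcytosines in a library, with the numbers of windows in brackets. CHH-poor windows lie left of the dashed line, and CHG is 48.1% (S5) and 64.7% (S3) with none, 60.4 and 72.5% with 4 and 64.3 and 75.4% with 5, without a step at the line.

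Asymmetric methylcytosines were rare in the CHH-poor windows by choice, at 1.63, 1.59 and 1.46 per window in the S5 libraries and 1.43 and 1.49 in the S3 libraries. In each library, 138 to 164 of the windows had none. Of the 2748 asymmetric cytosines listed there in any library, 1950 (71.0%) were listed in a single library and 62 (2.26%) in all 5. In the other CG and CHG windows these shares were 28.8 and 22.6%. Those in CHH-poor windows were also weakly methylated, at 27.3, 28.6 and 30.3% in the S5 libraries and 30.3 and 29.1% in the S3 libraries, with overlap. In the other windows the asymmetric level was 43.8% ± 0.819 (SD, n = 3) at S5 and 41.4% ± 0.832 (SD, n = 2) at S3, without overlap.

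The number of listed CHG methylcytosines in the CHH-poor windows was 8.20, 8.60 and 7.58 per window at S5 and 8.98 and 9.48 at S3. All S5 libraries were below both S3 libraries. The other CG and CHG windows had 15.2, 14.3 and 14.8 at S5 and 15.4 and 15.6 at S3, also without overlap. For CG, the CHH-poor windows had 13.7 at S5 and 13.5 at S3. Of 4288 CHG cytosines of the CHH-poor windows listed in both S3 libraries, 182 (4.24%) were listed in no S5 library. Of 3149 listed in all S5 libraries, 26 (0.826%) were listed in no S3 library. In the other windows these shares were 0.975 and 0.516%. Such cytosines do not enter the levels over shared cytosines. When each library was averaged over its own list, the CHG level in the CHH-poor windows was 52.8% ± 1.56 (SD, n = 3) at S5 and 62.1% ± 0.0452 (SD, n = 2) at S3, a difference of -9.25 points without overlap.

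The shared CHG cytosines of a CHH-poor window were few and close together. The median window had 10 CG and 5 CHG, compared with 10 and 10 in the other windows, and its CHG cytosines spanned a median of 108 bp, compared with 358 bp. Exactly 4 CHG cytosines were shared in 258 CHH-poor windows and 5 in 121, with up to 24. Both strands of a CHG site were measured at 776 sites. The level was lower at S5 on both strands at 75.9% of these sites and higher on both at 3.35%, whereas in the other windows these shares were 37.6 and 14.9%. The difference between the stages was -13.5 points on the forward strand and -13.4 points on the reverse strand. The strands of a site differed by a median of 5.34 points, against 3.40 points in the other windows.

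CHG cytosines followed by a listed cytosine, which lie in CCG sites, made up 5.67% of the shared CHG cytosines in CHH-poor windows and 10.5% in the other windows. The 166 CCG cytosines had a level of 46.2, 47.0 and 50.6% at S5 and 57.0 and 55.9% at S3, a difference of -8.48 points. The level of the 2763 remaining CHG cytosines was 56.2% ± 1.69 (SD, n = 3) at S5 and 70.0% ± 0.706 (SD, n = 2) at S3, a difference of -13.8 points. In the other windows the differences were -3.71 points for CCG and -2.55 points for the rest. CCG cytosines thus had the lower level in both sets of windows.

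The size of the stage difference was alike for all numbers of CHG cytosines, at -13.6 points in the 258 windows with 4, -13.8 points with 5, -13.6 points with 6 or 7 and -13.0 points in the 67 windows with 8 or more. With the number of CG cytosines, the CHG level was lower. The 146 windows with 4 to 6 CG had a CHG level of 60.3% at S5 and 72.0% at S3, and the 129 windows with 16 or more CG had 51.8% at S5 and 66.7% at S3. The stages overlapped in none of these groups.

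The windows that follow are given by their position in version 1 of the kabuli chickpea genome, which is the build of the tables, and were named by rules on size, site number and closeness to the medians. The greatest called fall in CHG was in Ca7:11576001-11576500, with 7 CG and 5 CHG cytosines. Its CHG level was 22.4, 57.9 and 35.5% in the S5 libraries and 77.3 and 83.1% in the S3 libraries (q = 6.45e-15, logistic regression). The S5 libraries were far apart here but all below S3. All 5 CHG cytosines lay on the reverse strand, from base 11576104 to base 11576128, so that a read could be counted at each of them. The CG level of this window was also lower, at 80.6% ± 7.20 (SD, n = 3) at S5 and 97.4% ± 1.19 (SD, n = 2) at S3, which was under the limit of 25 points for a call (q = 1.31e-05, logistic regression).

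The next window, Ca7:45058001-45058500, had 27 CG and 4 CHG cytosines. Its CHG level was 41.5, 26.6 and 34.4% at S5 and 70.2 and 76.0% at S3 (q = 4.93e-13, logistic regression), whereas the CG level was 96.7% at S5 and 96.4% at S3 with overlapping libraries. All 4 CHG cytosines lay on the forward strand. The cytosine at base 45058135 had 32.1, 30 and 36% at S5 and 69.0 and 63.6% at S3, over 20 to 33 reads. That at base 45058074 had 60, 28.6 and 26.9% at S5 and 64 and 83.3% at S3, so that S5 replicate 1 was close to S3 replicate 1 there. This window was flanked by CG-only windows with 8 and 32 shared CG cytosines and no CHG. The third, Ca2:2470001-2470500, had 12 CG and 5 CHG cytosines and a CHG level of 37.5, 42.3 and 43.5% at S5 and 77.5 and 79.8% at S3 (q = 7.62e-13, logistic regression).

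Only 1 CHH-poor window was called higher in CHG, Ca3:5069001-5069500, with 24 CG and 4 CHG cytosines. Its CHG level was 73.2, 76.2 and 87.1% at S5 and 46.3 and 58.1% at S3 (q = 4.07e-05, logistic regression), without overlap, and its CG level was above 90% in all 5 libraries. The single window called higher in CG was Ca3:34476001-34476500, with 4 CG and 4 CHG cytosines. Its CG level was 75.5, 73.2 and 45.9% at S5 and 40.3 and 34.3% at S3 (q = 0.000221, logistic regression). In the same window the CHG level was 63.3, 57.1 and 30.6% at S5 and 28.0 and 30% at S3. S5 replicates 1 and 2 were high in both contexts, while S5 replicate 3 lay close to the S3 libraries.

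Some windows had no asymmetric methylcytosine in any library and yet many CG and CHG sites. The richest was Ca1:46459501-46460000, with 31 CG and 8 CHG cytosines, a CHG level of 33.3, 38.1 and 34.4% at S5 and 39.4 and 46.3% at S3, and a CG level of 87.2 to 94.1% over the 5 libraries. It was not called (q = 0.153, logistic regression), although every S5 library was below both S3 libraries in CHG. In Ca6:16484001-16484500, with 26 CG and 4 CHG cytosines, the CHG level was 67.1, 70.2 and 79.7% at S5 and 88.0 and 73.8% at S3, with overlap. In Ca3:19076501-19077000, with 17 CG and 4 CHG cytosines, it was 42.6, 43.6 and 33.8% at S5 and 37.3 and 46.7% at S3, also with overlap.

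Of the 13 windows without asymmetric methylcytosines, the 3 closest to the median CG and CHG levels of the members had larger stage differences than the median member, at -24.2, -29.9 and -34.3 points. Ca1:3658501-3659000, with 8 CG and 5 CHG cytosines, had a CHG level of 42.9, 45.5 and 39.2% at S5 and 72.9 and 71.9% at S3 (q = 1.78e-05, logistic regression), and was called lower. Ca1:1081001-1081500, with 11 CG and 4 CHG cytosines, had 45.5, 32.8 and 42.9% at S5 and 87.2 and 62.1% at S3 and was called lower too. Its 4 CHG cytosines formed 2 symmetric sites, and at 1 of these the forward cytosine had 50, 36.4 and 55.6% at S5 and 83.3 and 66.7% at S3, and the reverse cytosine 46.7, 38.9 and 52.4% at S5 and 92.9 and 60.9% at S3. In Ca2:17428501-17429000, with 10 CG and 5 CHG cytosines, the CHG level was 52.3, 63.6 and 39.5% at S5 and 81.7 and 70.3% at S3. Its stages did not overlap, but its difference of -24.0 points in pooled reads was just short of a call. The CG level was above 93% in all libraries in each of these 3 windows.

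CHH-poor windows were mostly isolated. They formed 529 runs, of which 517 were single windows and 12 were pairs, and 64 had another within 10 kb. In the pair at Ca1:19439001-19440000, the first window was called lower in CHG (45.8, 47.7 and 63.9% at S5, 85.4 and 77.5% at S3), while the second had 33.3, 46.2 and 48.1% at S5 and 61.8 and 45.5% at S3 with overlap. The pair at Ca1:43590501-43591500 had CHG levels of 59.8, 56.3 and 59.0% at S5 and 77.9 and 73.6% at S3 in its first window, without a call in either. In the pair at Ca2:26395501-26396500 both windows were lower at S5 without overlap, and neither was called.

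Of the 1082 windows next to CHH-poor windows, 208 (19.2%) were CG-only windows and 146 (13.5%) were other CG and CHG windows. Next to other CG and CHG windows, these shares were 0.248% and 58.9%. Next to CG-only windows, which share the limit of 4 asymmetric methylcytosines, they were 55.4% and 0.627%. Of all 694489 windows, 57625 were CG-only windows and 145566 were other CG and CHG windows. Most of the 1082 were of further kinds, with 377 (34.8%) holding fewer than 4 CG. Another 327 (30.2%) held 4 or more CG without being CG-only or CG and CHG windows. Averaged over shared CHG cytosines, the CHG level was lowest in the CHH-poor window itself and higher on both sides. There were 2929 such cytosines in the CHH-poor windows, 1026 in the windows before and 1222 in the windows after. Adjacent windows with many CHG thus weighed most, and those without CHG, such as CG-only windows, did not enter. The level in a typical adjacent window was not given by this. It was 68.8% at S5 and 78.0% at S3 in the window before, 68.5 and 77.2% in the window after, and 85.4% at S5 and 88.9% at S3 at 5000 bp before. The difference between the stages was -9.22 and -8.74 points in the adjacent windows and -3.55 and -3.46 points at 5000 bp, without overlap at any of these distances. Listed CG methylcytosines averaged 13.6 per CHH-poor window and 9.68 and 9.37 in the adjacent windows. Asymmetric ones averaged 1.52, and 12.1 and 9.94 at 5000 bp on either side. Their median over windows was 1.6 in the CHH-poor windows, 1 in the windows before and after, and 3 and 1.6 at 5000 bp. The higher means at a distance thus came from a part of the windows, and the typical adjacent window was also poor in asymmetric methylcytosines. The centre differed from its surroundings in these mean numbers by choice.

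**Figure D5:**
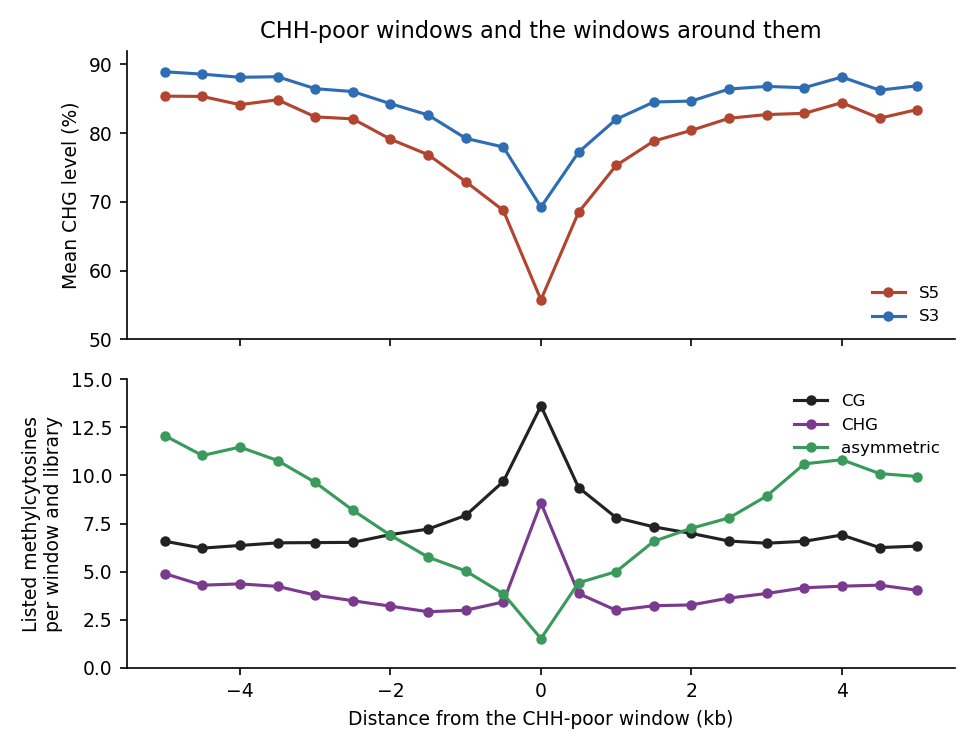
Mean CHG level (%, upper panel) at S5 and S3 and mean number of listed methylcytosines per window and library (lower panel) in the 541 CHH-poor windows and the windows up to 5 kb before and after them. CHG level, averaged over shared CHG cytosines so that windows with many of them weigh most, is lowest at the centre, at 55.8% (S5) and 69.3% (S3). Asymmetric methylcytosines average 1.52 there and about 10 to 12 at 5 kb, where the median window had 3 before and 1.6 after.

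The stage difference varied with the surroundings. The 157 CHH-poor windows next to a CG-only window, and to no other CG and CHG window, had a CHG level of 48.8% ± 2.11 (SD, n = 3) at S5 and 66.0% ± 0.811 (SD, n = 2) at S3, a difference of -17.2 points. The 143 next to another CG and CHG window had 61.7% ± 1.76 (SD, n = 3) at S5 and 72.6% ± 0.471 (SD, n = 2) at S3, a difference of -10.9 points. The differences of these groups themselves differed by -6.23 points, without overlap of the stages (two-sided exact permutation p = 0.1). The largest group, the 241 windows (44.5%) next to neither kind, had 56.4% at S5 and 69.2% at S3, a difference of -12.8 points. Within 50 kb on each side, a median of 21.5% of the windows were CG and CHG windows, compared with 31% around other CG and CHG windows, 9.5% around CG-only windows and 18.5% around all windows. With the CHH-poor windows divided into 4 groups by this share, the CHG difference was -15.1 points in the 136 with the fewest such neighbours, -16.3 and -13.6 points in the next groups and -8.70 points in the 129 with the most, which was not an even order. The lowest and highest groups differed by -6.37 points (two-sided exact permutation p = 0.1). These groups were chosen after seeing the data.

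Along the chromosomes, 34.6% of the CHH-poor windows lay in the middle 40% of a chromosome, compared with 47.9% of the other CG and CHG windows and 31.2% of the CG-only windows. The outer 10% at each end held 19.6% of the CHH-poor windows together, compared with 16.2% of the other CG and CHG windows and 25.6% of the CG-only windows. The number of CHH-poor windows ran from 33 on Ca8 to 82 on Ca1, and their share of all CG and CHG windows from 0.292% on Ca7 to 0.864% on Ca8. The CHG level was lower at S5 without overlap on 8 of 8 chromosomes, by -11.3 points on Ca5 up to -16.4 points on Ca8. The CG level was higher at S5 on each chromosome, by 0.0366 to 0.855 points, with overlapping libraries on Ca1, Ca4, Ca5 and Ca7.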

How the data were processed

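DNA methylomes of 5 libraries, S5 replicates 1 to 3 and S3 replicates 1 and 2, were analysed, with groups and numbers taken from the sample labels. The authors filtered reads in NGS QC Toolkit, aligned them to version 1 of the kabuli genome in Bismark 0.14.3, kept unique alignments, and called methylcytosines by a binomial test against the chloroplast error rate. The deposited tables give coverage as a count of reads (5 or more at every listed cytosine) and the methylation level as a percent. Their product gave whole methylated reads at every line, within a tolerance of 0.006 points on the percent for its rounding. Between 148 and 248 lines per library at repeated positions were left out. Only Ca1 to Ca8 were used. No genome or annotation of this build was used, so genes, transposons and sequences of the windows were not analysed here.

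Levels were averaged over cytosines listed in all 5 libraries. Stages were compared by exact permutation of the stage labels over the 5 libraries, and sets of windows by exact sign-flip within libraries. Window tests used logistic regression (Python 3.11.15, SciPy 1.17.1). The quasi-binomial test used dispersions moderated in limma 3.58.1 (common values of 1.36 for CHG and 1.34 for CG) and held at 1 or above. Tests were tried on simulated windows. The labels give no origin of the replicates beyond their number, while the methods of the study call them biological replicates. The p-values of the exact tests measure the spread between these libraries only. The logistic regression pools the reads of a stage, so that its q takes no account of the spread between libraries. Named windows were, per context and direction, the 3 called windows with the largest difference without overlap, and, among windows with no asymmetric methylcytosine, the 3 richest in CG and CHG and the 3 closest to the median levels, and the 3 longest runs. The windows, lists and tests were chosen with earlier results of these data known.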

Additional observations from a re-analysis of the deposited data

How the results depend on the processing

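The CHG difference between the stages in CHH-poor windows kept its direction under 12 alternatives, at -15.2 to -9.25 points, and when each library was left out in turn, at -14.5 to -13.0 points. Its excess over the other windows was -12.5 to -6.77 points (-11.4 to -10.2 without single libraries). The lower CHG level of the CHH-poor windows was -32.3 to -13.4 points (-28.1 to -25.0). For CG, the difference was 0.157 to 0.639 points (0.368 to 0.556 without single libraries), and its excess over the other windows was 0.0975 to 0.440 points (0.164 to 0.355 without single libraries) except with windows of a mean coverage of 15 or more in every library (96 members), where it reversed to -0.00617 points; the cause was not tested. The own lists, the mean over windows, CHG without CCG and the level bands were chosen after seeing the data.

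Against 73 windows called for CHG, 1 was called at 40 points, 29 with 10 or more reads per cytosine (198 members could be tested), 12 with a mean coverage of 15 or more (of 96) and 37 with at most 4 asymmetric methylcytosines in all libraries together (of 236), in the last 3 from fewer windows. Called lower at 40 points were 0.185% of the CHH-poor windows, against 0.0163% of all windows tested. These shares were 14.6 and 0.36% with 10 reads and 12.5 and 0.483% with a mean coverage of 15. With the joint limit of 4 they were 15.7 and 0.411%. The count was 62 to 87 without single libraries, with 11.3 to 15.9% called lower against 0.37 to 0.56% of all windows. Against 1 window called for CG, 0 were called by the quasi-binomial test, at 40 points, with 10 reads, with a mean coverage of 15 or with the joint limit of 4, and 0 to 2 without single libraries (0 without S3 replicate 2, S5 replicate 1 or S5 replicate 2, and 2 without S3 replicate 1 or S5 replicate 3). The 2 without S3 replicate 1 were both called higher, against 152 of all 265970 windows. Those without S5 replicate 3 were 1 lower and 1 higher, against 224 lower and 118 higher of all windows. Of all windows, at most 0.0842% were called lower for CG at these settings.

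No pairing by replicate number was seen in the deviations, which correlated between -0.0188 and 0.0188 across the stages. As there were 2 S3 libraries, these values come in pairs of equal size and opposite sign. They cannot exclude a shared origin of libraries with the same number. With the replicate number as a block, which leaves out S5 replicate 3, the CHG difference was -14.5 points, the CG difference 0.368 points, and 87 windows were called for CHG and 2 for CG. The shares called lower were 15.9% for CHG, against 0.561% of all windows, and 0.185% for CG, against 0.0838%. Called higher were 1 for CHG, against 9 of all 177639 windows, and 1 for CG, against 118 of all 265970 windows. The context read from a genome was not run. Levels over shared cytosines leave out those missing from any list, whether unmethylated, weakly methylated or thinly covered there. Also, 4 CHG cytosines at about 15 reads limit what a single window can show.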
